A study of Mus musculus with 9 samples.

Results

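CXCR3 is a chemokine receptor of activated T cells and natural killer cells, and CXCL9, CXCL10 and CXCL11 are the chemokines that bind it. The genes described here are those 4, Cxcl9, Cxcl10, Cxcl11 and Cxcr3, taken by name from a table of 54456 mouse genes, of which 42688 had at least 1 count and 26081 were expressed enough to be tested. All 4 were among the tested genes. The RNA came from mouse skin, from lesions that resemble alopecia areata, an immune-mediated loss of hair. One group of 3 libraries came from lesions treated with microneedles (MNs, a patch of short needles that enters the upper skin) loaded with the cytokine IL-2 and the chemokine CCL22. A second group of 3 came from lesions treated with empty MNs, and the last 3 from untreated lesions. All 9 libraries are of lesions, so no healthy skin is among the groups. The labels used here give no strain, age, sex, dose, time after treatment or way in which the lesions were brought about. Nor do they say how many animals stand behind each group, so every p-value here rests on the spread between libraries, which may be technical.

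In the textbook account, interferon-gamma made by T cells and natural killer cells acts through its receptor and the kinases JAK1 and JAK2 to switch on the 3 ligand genes in macrophages, dendritic cells, fibroblasts, endothelium and keratinocytes. The ligands then draw in more cells that carry CXCR3, a receptor that signals through inhibitory G proteins. Cxcl9 depends most on interferon-gamma, whereas Cxcl10 also answers to type I interferon and to NF-kappaB. In alopecia areata, T cells gather around the hair follicle, and this ligand and receptor group has been studied as one of their guides. IL-2 sustains regulatory T cells and CCL22 attracts them through the receptor CCR4, which is the background to the loaded device.

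The libraries held 85962714 to 96740589 counts each. Markers of skin were abundant: 9 keratinocyte genes summed to between 29296 and 31305 CPM (a unit of read count corrected for library depth) with loaded MNs, 49347 and 50690 CPM with empty MNs and 41143 and 42411 CPM in untreated lesions. Skeletal muscle markers also summed to between 7279 and 7702 CPM with loaded MNs, 10110 and 11918 CPM with empty MNs and 7788 and 8020 CPM in untreated lesions. Mitochondrial genes took 3.78 to 3.90% of the counts with loaded MNs, 3.31 to 3.42% with empty MNs and 4.56 to 4.72% in untreated lesions. Tissue make-up and mitochondrial share thus moved with the groups, and their part in the results below was not tested. Tests were made in 1 edgeR fit across all tested genes, and a gene was called when its Benjamini-Hochberg adjusted p was under 0.05.

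The 3 ligand genes sit side by side on mouse chromosome 5, all on the minus strand. In the coordinates of the deposited table, which follow mm39, Cxcl9 spans chr5:92469206-92475938, Cxcl10 spans chr5:92494497-92496748 and Cxcl11 spans chr5:92507403-92513344. Cxcr3 lies apart from them, on the X chromosome at chrX:100775141-100777875, also on the minus strand. Cxcl10 and Cxcl11 lie inside Art3, a gene of the ADP-ribosyltransferase family on the plus strand, while Cxcl9 and Cxcr3 overlap no other gene of the table. RefSeq, for the build GRCm38.p6, lists Cxcl11 as a transcribed pseudogene, and the other genes of the group as protein coding. GENCODE M21 lists Cxcl11 as a polymorphic pseudogene, a gene type whose coding state can differ between mouse strains. The labels give no strain. Transcript counts of Cxcl11 therefore say nothing of a CXCL11 protein here.

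The promoters of Cxcl9 and Cxcl10 are shown because these genes carried most of the ligand transcript. RefSeq promoters of GRCm38.p6 were matched for 3 of the 4 genes. Each line gives the 250 bases before the start of transcription, 5′ to 3′ on the minus strand, chr5:92328080-92328329 for Cxcl9 and chr5:92348890-92349139 for Cxcl10. Capitals mark matches to GAAA, any 2 bases and GAAA, the core of the element bound by interferon-regulated factors (ISRE), and to GGGA, any 4 bases and CC, a core of NF-kappaB sites, searched on both strands.
Cxcl9: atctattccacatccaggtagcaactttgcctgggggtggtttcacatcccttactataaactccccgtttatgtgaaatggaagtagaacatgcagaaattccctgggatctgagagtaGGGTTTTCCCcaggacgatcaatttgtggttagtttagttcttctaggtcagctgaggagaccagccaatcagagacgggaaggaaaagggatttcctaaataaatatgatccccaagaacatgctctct
Cxcl10: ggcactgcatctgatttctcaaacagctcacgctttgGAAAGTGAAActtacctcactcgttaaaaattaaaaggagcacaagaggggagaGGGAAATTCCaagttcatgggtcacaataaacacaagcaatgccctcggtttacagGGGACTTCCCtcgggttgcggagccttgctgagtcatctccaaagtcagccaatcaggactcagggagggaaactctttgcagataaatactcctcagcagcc

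The Cxcl10 window held 1 ISRE match, GAAAGTGAAA, from 213 to 204 bases before the start. It also held NF-kappaB matches at 2 places, GGGAAATTCC from 159 to 150 bases and GGGACTTCCC from 103 to 94 bases before the start, the second of which reads as a match on both strands. The Cxcl9 window held 1 NF-kappaB match, GGGTTTTCCC, from 130 to 121 bases before the start, which is GGGAAAACCC on the other strand. Among 32851 mouse promoters, 2.98% held the ISRE letters and 17.6% the NF-kappaB letters in the same 250 bases. Neither the core of the gamma-activated sequence, TTCNNNGAA, present in 7.02% of those windows, nor the T-box letters TCACACCT, present in 1.12%, was found in the windows of Cxcl9, Cxcl10 or Cxcr3. The Cxcr3 window held no match to any of these letters. The search took only these fixed letters, so a response element spelled otherwise would be missed, and no match does not show that none is present. These are descriptions of sequence, and the libraries measured no binding.

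Each ligand gene was far lower in both microneedle groups than in untreated lesions. Cxcl9, the ligand most tied to interferon-gamma, had 5.61, 5.53 and 6.96 CPM with loaded MNs, 4.10, 4.07 and 4.61 CPM with empty MNs, and 24.6, 20.6 and 21.2 CPM in untreated lesions. The 3 groups did not overlap. Cxcl10, the ligand shared with type I interferon responses, had 1.43, 1.59 and 2.0 CPM with loaded MNs, 1.29, 1.03 and 1.15 CPM with empty MNs, and 4.08, 4.56 and 4.34 CPM in untreated lesions. Here too the loaded group lay between the others without overlap. Cxcl11 had 0.470, 0.636 and 0.831 CPM with loaded MNs, 0.421, 0.276 and 0.560 CPM with empty MNs, and 3.89, 3.57 and 3.36 CPM in untreated lesions. The microneedle groups overlapped each other for Cxcl11, and both lay far below untreated lesions.

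Cxcr3, the receptor gene, was counted at low depth, as Cxcl11 was in the empty libraries, with 31, 40 and 27 reads in the loaded libraries, 46, 40 and 42 in the empty ones and 37, 52 and 45 in the untreated ones. As levels these were 0.347, 0.439 and 0.288 CPM with loaded MNs, 0.497, 0.409 and 0.435 CPM with empty MNs, and 0.450, 0.611 and 0.520 CPM in untreated lesions. The loaded libraries all lay below the untreated ones, by a narrow margin, and the empty libraries overlapped both other groups. Its low counts widen every interval given for it below.

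**Figure D1:**
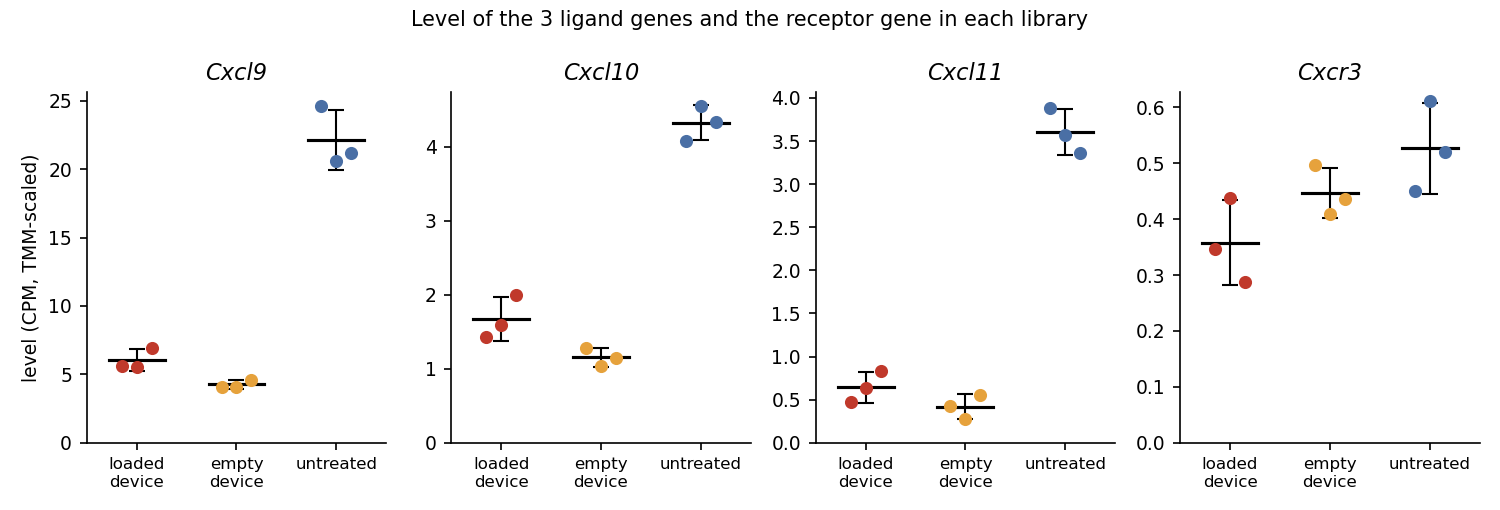
Level of each gene in each library, in CPM on a linear axis that starts at 0, with its own scale per panel; points are libraries, the bar is the mean and the whiskers 1 SD (n = 3). The 3 ligand genes stand several-fold higher in untreated lesions, at 22.1, 4.33 and 3.61 CPM on average for Cxcl9, Cxcl10 and Cxcl11, whereas the Cxcr3 groups lie close together.

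With loaded MNs against untreated lesions, 3 of the 4 genes were called lower and none higher, where 23.3% of all tested genes were called lower and 19% higher. Cxcl9 averaged 6.03 ± 0.802 CPM with loaded MNs and 22.1 ± 2.17 CPM in untreated lesions (SD, n = 3 each), a log2 fold change of -1.87 ± 0.0861 (SE), or 3.66-fold lower, with an edgeR adjusted p of 2.28e-11. Only 63 of the 26081 tested genes had a lower fold change. Cxcl10 averaged 1.67 ± 0.295 CPM with loaded MNs and 4.33 ± 0.238 CPM in untreated lesions, 2.58-fold lower (log2 -1.37 ± 0.114, edgeR adjusted p = 1.07e-10). Cxcl11 averaged 0.645 ± 0.181 CPM with loaded MNs and 3.61 ± 0.266 CPM in untreated lesions, 5.56-fold lower (log2 -2.47 ± 0.171, edgeR adjusted p = 3.83e-11). Of all tested genes, 1.6% were called and at least 2-fold lower, as all 3 ligand genes were. In bulk tissue, fewer cells that make a transcript and less transcript per cell cannot be told apart.

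Cxcr3 averaged 0.358 ± 0.0761 CPM with loaded MNs and 0.527 ± 0.0809 CPM in untreated lesions. The log2 fold change was -0.56 ± 0.231, with a 95% interval from -1.03 to -0.09, and the edgeR adjusted p of 0.0526 lay just above the threshold. The call changed when single libraries were left out: the edgeR adjusted p was 0.0302 without loaded library 2 and 0.0424 without untreated library 1. In the other direction, the edgeR adjusted p rose to 0.211 without loaded library 3, 0.211 without untreated library 2 and 0.123 without loaded library 1. Libraries that did not overlap in the lower direction were found for 28.1% of all tested genes, so the lack of overlap in Cxcr3 is common in these data.

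The fall was seen with the empty device as well, and was larger there. Empty MNs against untreated lesions called the same 3 ligand genes lower, where 28.1% of all tested genes were called lower and 20.2% higher. Cxcl9 averaged 4.26 ± 0.304 CPM with empty MNs, 5.18-fold lower than in untreated lesions (log2 -2.37 ± 0.0895, edgeR adjusted p = 7.65e-13). Cxcl10 averaged 1.16 ± 0.126 CPM with empty MNs, 3.74-fold lower (log2 -1.90 ± 0.120, edgeR adjusted p = 1.49e-13). Cxcl11 averaged 0.419 ± 0.142 CPM with empty MNs, 8.59-fold lower (log2 -3.10 ± 0.183, edgeR adjusted p = 9.75e-13), and only 20 tested genes had a lower fold change. Of all tested genes, 1.67% were called and at least 2-fold lower in this comparison, and 31.1% had empty libraries that all lay below the untreated ones. The comparisons with untreated lesions share those 3 untreated libraries, so their results are not independent of each other. Cxcr3 averaged 0.447 ± 0.0449 CPM with empty MNs, and its log2 fold change of -0.24 had an interval from -0.69 to 0.22 (edgeR adjusted p = 0.406).

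The direct comparison of the devices put the ligand genes higher with loaded MNs. Loaded against empty MNs called 3 of the 4 genes higher, where 22.9% of all tested genes were called higher and 18.5% lower. Cxcl9 was 1.42-fold higher (log2 0.50 ± 0.0988, interval 0.29 to 0.71, edgeR adjusted p = 0.000512). Cxcl10 was 1.45-fold higher (log2 0.54 ± 0.133, interval 0.27 to 0.81, edgeR adjusted p = 0.00144). Both genes were higher in each of the 3 loaded libraries than in any empty one, a separation in the higher direction that 28.1% of all tested genes also showed. Cxcl11 was 1.54-fold higher on average (log2 0.63 ± 0.227, edgeR adjusted p = 0.0296), but its libraries overlapped. That call was lost without loaded library 2 or 3 or without empty library 1 or 2, with edgeR adjusted p-values of 0.0632, 0.211, 0.0705 and 0.170, and the fold change was 0.40 without loaded library 3 and also 0.40 without empty library 2. Cxcr3 did not pass the test (log2 -0.32, interval -0.80 to 0.16, edgeR adjusted p = 0.293).

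**Figure D2:**
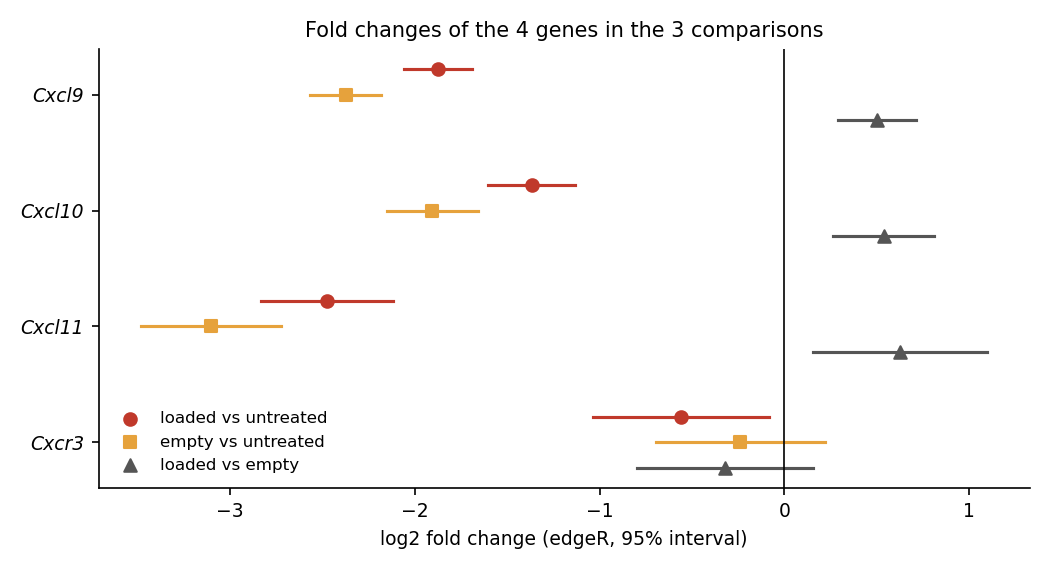
Log2 fold change of each gene (horizontal axis) in each comparison, with points for the edgeR estimate and bars for its 95% interval. The ligand genes lie between -1.37 and -3.10 against untreated lesions and between 0.50 and 0.63 for loaded against empty MNs, and the Cxcr3 intervals lie near or across 0.

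The genes were compared with each other per length of the gene, since a longer gene gathers more reads. The scale is CPM per kilobase of the gene's span, because reads in introns were counted too. In untreated lesions the mean levels ran from Cxcl9 at 3.29, through Cxcl10 at 1.92 and Cxcl11 at 0.607, to Cxcr3 at 0.193, and no neighbours in this order overlapped. With loaded MNs, Cxcl9 at 0.896 and Cxcl10 at 0.744 overlapped in their ranges over libraries (0.821 to 1.03 and 0.635 to 0.889). With empty MNs, Cxcl9 at 0.633 stood above Cxcl10 at 0.514 without overlap. Cxcl11 lay below Cxcr3 in both microneedle groups, at 0.109 against 0.131 with loaded MNs, where the ranges overlapped, and at 0.0705 against 0.164 with empty MNs, where they did not. Per kilobase of exon, with exon lengths from GENCODE M21, Cxcl9 took higher values: it averaged 2.0 with loaded MNs (1.83 to 2.31 over libraries), 1.41 with empty MNs and 7.33 in untreated lesions, while Cxcl10, whose exons were annotated as its whole span, kept its values. On that scale Cxcl9 and Cxcl10 did not overlap in any group, so their overlap with loaded MNs depends on the length used.

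The ligand genes did not all move by the same factor. The ratio of Cxcl10 to Cxcl11 was 3.02, 2.49 and 2.40 with loaded MNs, 3.03, 3.69 and 2.05 with empty MNs, and 1.05, 1.28 and 1.29 in untreated lesions. Cxcl11 thus lost more than Cxcl10 in all 6 microneedle libraries, with log2 differences in the ratio of 1.13 for loaded MNs and 1.24 for empty MNs against untreated lesions. The exact permutation test of the 3 groups gave p = 0.0214, or 0.0343 adjusted over the 8 ratios tested here. Without untreated library 1 the adjusted p of this exact permutation test was 0.0514. The ratio of Cxcl9 to Cxcl10 was 3.91, 3.47 and 3.47 with loaded MNs, 3.18, 3.93 and 4.0 with empty MNs, and 6.02, 4.51 and 4.87 in untreated lesions. Cxcl9 therefore lost more than Cxcl10 (exact permutation p = 0.0286, adjusted 0.0381), although the adjusted p passed 0.05 without loaded library 2 or 3, empty library 2 or untreated library 1, up to 0.110. The ratio of Cxcl9 to Cxcl11 did not pass the exact permutation test (p = 0.0571, adjusted 0.0653), with log2 differences of 0.63 for loaded and 0.77 for empty MNs, and did pass it without loaded library 1, empty library 2 or empty library 3 (adjusted p = 0.0245, 0.0457 and 0.0286). Between the devices themselves these 3 log2 ratios differed by only -0.03, -0.14 and -0.11 for Cxcl9 to Cxcl10, Cxcl9 to Cxcl11 and Cxcl10 to Cxcl11.

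The 3 ligands together outnumbered Cxcr3 counts by 21.4, 17.5 and 33.5 to 1 with loaded MNs, by 11.6, 13 and 14.4 to 1 with empty MNs, and by 71.5, 46.6 and 55.0 to 1 in untreated lesions. The groups did not overlap, and the exact permutation test over the 3 groups gave p = 0.00357, the smallest it can give, or 0.00714 adjusted. Among the counts of the 4 genes, Cxcr3 made up 2.85 to 5.35% with loaded MNs, 6.44 to 7.88% with empty MNs and 1.36 to 2.08% in untreated lesions, and Cxcl11 made up 5.97 to 8.25%, 4.77 to 8.28% and 11.4 to 12.2% in the same order of groups.

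Markers of macrophages, which are among the cells that make the ligands, were lower too, by less than the ligand genes. Of 10 macrophage markers, 9 were called lower with loaded MNs than in untreated lesions and 1, Mertk, higher, with a median log2 fold change of -0.58 beside -0.01 over all tested genes. Their sum was 177 to 190 CPM with loaded MNs, 228 to 233 CPM with empty MNs and 258 to 271 CPM in untreated lesions, and none of them was at 0. Relative to that sum, Cxcl9 fell by 1.37 log2 units with loaded MNs and by 2.17 with empty MNs against untreated lesions. Cxcl10 fell by 0.87 with loaded and by 1.70 with empty MNs, and Cxcl11 fell by 2.0 with loaded and by 2.94 with empty MNs on the same scale. Each of these 3 ratios gave the smallest p that the exact permutation test allows, 0.00357, or 0.00714 adjusted. Loaded MNs exceeded empty MNs in the same ratios by 0.81, 0.83 and 0.95 log2 units for Cxcl9, Cxcl10 and Cxcl11. With loaded MNs against untreated lesions, 4 of 5 monocyte markers, 7 of 7 fibroblast markers, 8 of 9 keratinocyte markers and 3 of 8 dendritic cell markers were called lower, where 23.3% of all tested genes were, so that the dendritic cell count is not far from that share. Among those keratinocyte calls, that of Trp63 was lost under 9 of 19 other settings. Of 7 endothelial markers, 2 were called higher and 1 lower in that comparison (median log2 fold change 0.06). Loaded against empty MNs called 8 of 8 hair follicle markers (median log2 fold change 0.81) and 6 of 6 adipocyte markers (1.39) higher. This was the direction of the ligand genes. In the opposite direction, 6 of 7 fibroblast, 6 of 10 macrophage and 5 of 9 keratinocyte markers were called lower, with 1 of each list higher. Of all tested genes, 22.9% were called higher and 18.5% lower between the devices. The part of these cell types in the ligand results was not tested.

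T cells carry most of the Cxcr3 transcript in the textbook account, so the receptor gene was set against their markers. Of 14 T cell markers, 10 were called lower and none higher with loaded MNs than in untreated lesions (median log2 fold change -0.38). Of all tested genes, 23.3% were called lower there. Among the 10 were Cd3g (-0.73) and Trbc2 (-0.86), parts of the T cell receptor complex. The calls of Cd4 and Lck were lost under 8 and 7 of 19 other settings, that of Cd8a under 7 of 18 and that of Cd2 under 5 of 19. The 14 markers summed to between 39.1 and 40.9 CPM with loaded MNs, 45.2 and 49.3 CPM with empty MNs and 56.8 and 62.6 CPM in untreated lesions. The log2 ratio of Cxcr3 to this sum was -6.81 ± 0.317 with loaded MNs, -6.73 ± 0.208 with empty MNs and -6.81 ± 0.289 in untreated lesions (SD, n = 3 each). The exact permutation test gave p = 0.946, which at this spread does not show that the ratio was equal. Natural killer cell markers, from cells that also carry CXCR3, summed to between 4.43 and 5.16 CPM with loaded MNs, 4.73 and 5.04 CPM with empty MNs and 5.45 and 6.54 CPM in untreated lesions.

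**Figure D3:**
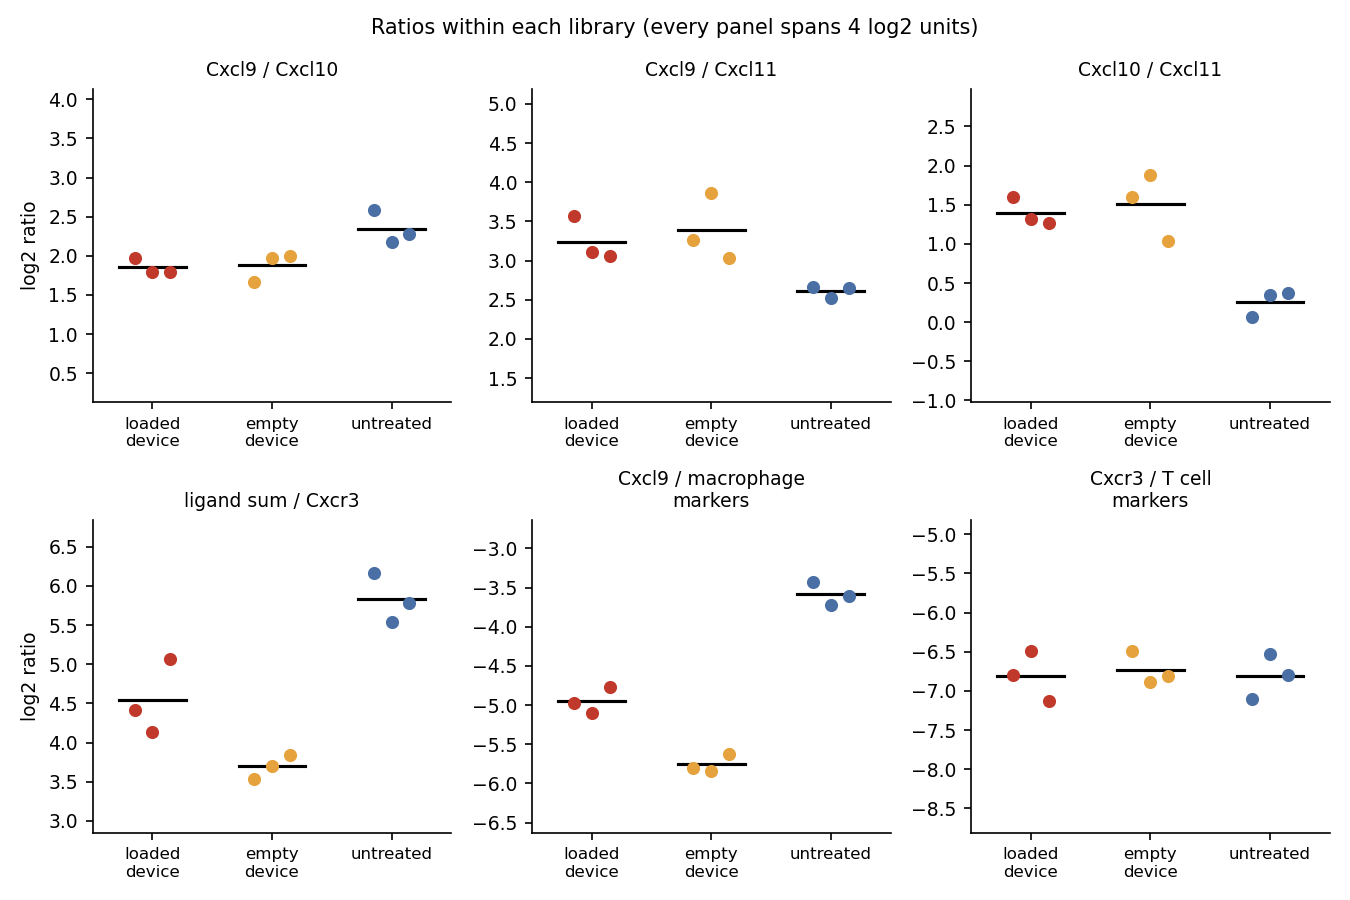
Log2 ratios within each library for 6 of the 8 ratios tested, with points for libraries and a bar for the group mean; every panel spans 4 log2 units. The ratio of the ligand sum to Cxcr3 and that of Cxcl9 to macrophage markers separate all 3 groups, the ratio of Cxcl10 to Cxcl11 is lowest in the 3 untreated libraries, and the ratio of Cxcr3 to T cell markers overlaps throughout.

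The inducer of the ligand genes was counted at the edge of detection. Ifng, the interferon-gamma gene, had 9, 5 and 4 reads in the loaded libraries, 1, 9 and 6 in the empty ones and 21, 23 and 14 in the untreated ones, and was called lower against untreated lesions with loaded MNs (log2 -1.78 ± 0.475, edgeR adjusted p = 0.00304) and with empty MNs (-2.01 ± 0.485, edgeR adjusted p = 0.000955). Between loaded and empty MNs it did not pass the test (log2 0.23 ± 0.596). Of 13 genes of the interferon-gamma signal, 9 were called lower and 1 higher with loaded MNs than in untreated lesions, 7 lower and 3 higher with empty MNs than in untreated lesions, and 7 lower and 2 higher with loaded than with empty MNs. Their median log2 fold changes in those comparisons were -0.19, -0.11 and -0.12, beside -0.01, -0.02 and 0.02 over all tested genes. In the same order, 23.3%, 28.1% and 18.5% of all tested genes were called lower and 19%, 20.2% and 22.9% higher. The 3 higher calls with empty MNs thus lie near the share of all tested genes. The list also holds genes whose products restrain the signal (Socs1, Socs3, Ptpn2, Ptpn6 and Pias1), so its counts do not measure signal strength. With loaded MNs against untreated lesions, Ptpn2 was the 1 higher call (log2 0.12). Ptpn6 (-0.17) and Pias1 (-0.27) were among the 9 lower calls.

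Irf1, a transcription factor gene induced by interferon-gamma, fell to 21.7 ± 1.70 CPM with loaded MNs and 20.0 ± 0.402 CPM with empty MNs, against 28.2 ± 0.923 CPM in untreated lesions (log2 -0.38 and -0.49, edgeR adjusted p = 2.42e-07 and 1.05e-09). Ifngr2, a chain of the interferon-gamma receptor, was lower with loaded MNs than in untreated lesions (log2 -0.26) and than with empty MNs (-0.23). Jak1 had 159 to 169 CPM with loaded MNs, 211 to 218 CPM with empty MNs and 184 to 190 CPM in untreated lesions. It was lower with loaded than with empty MNs (log2 -0.39, edgeR adjusted p = 4.66e-11). With loaded MNs it was also lower than in untreated lesions (log2 -0.19), a call lost under 1 of 19 other settings. Jak2 passed the test neither with loaded MNs against untreated lesions (log2 -0.05) nor between the devices (0.06), and was called lower with empty MNs against untreated lesions (-0.11), a call lost under 8 of 19 other settings, at 41.7 CPM with loaded MNs, 40.1 CPM with empty MNs and 43.2 CPM in untreated lesions.

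For the other routes to Cxcl10, the 7 type I and type III interferon genes looked up (Ifnb1, Ifnk, Ifne, Ifna2, Ifna4, Ifnl2 and Ifnl3) were all too low to be tested. Of 9 tested genes of their signalling route, 5 were called lower and 2 higher with loaded MNs than in untreated lesions. With empty MNs against untreated lesions 4 were lower and 3 higher, and with loaded against empty MNs 4 were lower and none higher. In that order, 23.3%, 28.1% and 18.5% of all tested genes were called lower and 19%, 20.2% and 22.9% higher. Irf9, whose product binds ISRE elements, was lower with loaded MNs than in untreated lesions (log2 -0.43) and than with empty MNs (-0.32). The 2 higher calls with loaded MNs against untreated lesions were Ifnlr1 (log2 0.22) and Tyk2 (0.17). Of 9 genes of the TNF and NF-kappaB route, 1 was called higher and none lower with loaded MNs than in untreated lesions. Of all tested genes, 19% were called higher and 23.3% lower there. With empty MNs against untreated lesions 5 of the 9 were higher and 2 lower, beside 20.2% and 28.1% of all tested genes. With loaded against empty MNs 1 was higher and 6 lower, beside 22.9% and 18.5% of all tested genes. Nfkb1, a subunit of NF-kappaB, was higher with empty MNs than in untreated lesions by a log2 fold change of 0.30. The libraries measured transcripts, not NF-kappaB activity, and the part of these routes in the ligand results was not tested.

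Genes that take up or trim the ligands were examined next. Ackr3, an atypical receptor that binds CXCL11 and removes chemokine, fell to 31.5 ± 0.724 CPM with loaded MNs and 34.5 ± 1.15 CPM with empty MNs, against 52.4 ± 2.11 CPM in untreated lesions (log2 -0.73 and -0.60, edgeR adjusted p = 5.99e-15 and 1.23e-13). Dpp4, the peptidase that shortens CXCR3 ligands at their amino end, had 96.8 ± 3.79 CPM with loaded MNs, 63.2 ± 4.08 CPM with empty MNs and 92.2 ± 1.56 CPM in untreated lesions. It was called lower with empty MNs than in untreated lesions (log2 -0.54) and higher with loaded than with empty MNs (0.61, edgeR adjusted p = 2.54e-12), and was not called with loaded MNs against untreated lesions (0.07, edgeR adjusted p = 0.164). The list behind these genes held 9 members: receptors and enzymes that bind or trim the ligands, and the chemokine genes Pf4, Cxcl12 and Cxcl13. Of the 9, 6 were called lower and none higher with loaded MNs than in untreated lesions, Pf4 and Cxcl13 among the 6. With empty MNs against untreated lesions 6 were again lower and none higher, Cxcl12 and Cxcl13 among them. With loaded against empty MNs 2 were higher and 3 lower. Of all tested genes, 23.3% were called lower with loaded MNs against untreated lesions and 28.1% with empty MNs. Between the devices 22.9% of all tested genes were called higher and 18.5% lower, so the higher count there lies near that share.

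Other genes of the type 1 T cell programme, to which Cxcr3 belongs, were taken as a list of 16 that also holds cytokines made by other cells, such as Il12b and Il18. Of the 16, 6 were called lower and none higher with loaded MNs than in untreated lesions, 5 lower and 2 higher with empty MNs than in untreated lesions, and 5 lower and none higher with loaded than with empty MNs. Il12b and Il18 were among the lower calls of both comparisons with untreated lesions. The lower count lies near the share of all tested genes for empty MNs against untreated lesions (28.1%, with 20.2% called higher). Of all tested genes, 23.3% were called lower with loaded MNs against untreated lesions and 18.5% with loaded against empty MNs. Cxcr6, the receptor of CXCL16 on T cells that settle in tissue, averaged 1.67 ± 0.115 CPM with loaded MNs, 2.17 ± 0.117 CPM with empty MNs and 3.23 ± 0.501 CPM in untreated lesions. It was called lower in each comparison (log2 -0.95 with loaded against untreated, -0.57 with empty against untreated and -0.38 with loaded against empty), although not between the devices without loaded library 2. Tbx21, which encodes the factor T-bet that switches on Cxcr3, had under 0.3 CPM on average in each group and passed no test (log2 -0.13 with loaded MNs against untreated lesions, edgeR adjusted p = 0.763).

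Downstream of the receptor, a list of 13 genes held its G proteins, arrestins, kinases and motility factors. With loaded MNs against untreated lesions 4 were called higher and 7 lower, where 19% of all tested genes were called higher and 23.3% lower. With empty MNs against untreated lesions 3 were called each way, close to the shares of all tested genes, and with loaded against empty MNs 3 were called higher and 8 lower, where 18.5% of all tested genes were called lower. Among the 7 lower calls with loaded MNs against untreated lesions, those of Rap1b and Pik3cd were lost under 11 and 7 of 19 other settings. Rgs1, which shuts off chemokine receptor signals in lymphocytes, was lower with both devices than in untreated lesions (log2 -0.95 with loaded and -0.92 with empty MNs). Rac2, a motility switch of blood cells, was likewise lower (-0.70 and -0.28).

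Other chemokines of the same family were looked up for comparison. Of 12 other CXC ligand genes, 9 were tested; 3 were called lower and 2 higher with loaded MNs than in untreated lesions, 5 lower and none higher with empty MNs than in untreated lesions, and 3 higher and 2 lower with loaded than with empty MNs. The counts with loaded MNs against untreated lesions lie near the shares of all tested genes (23.3% lower and 19% higher). Those shares were 28.1% lower and 20.2% higher with empty MNs against untreated lesions, and 18.5% lower and 22.9% higher between the devices. Cxcl13, a B cell attractant that can also bind CXCR3, fell by log2 0.64 with loaded MNs and 0.78 with empty MNs. Cxcl16, the ligand of CXCR6, fell by 0.56 with loaded and 0.32 with empty MNs. Cxcl5, a neutrophil attractant with 3, 6 and 11 reads in the loaded libraries, 1, 0 and 4 in the empty ones and 14, 4 and 11 in the untreated ones, was called lower with empty MNs than in untreated lesions (log2 -2.62 ± 0.752, edgeR adjusted p = 0.00471), on very few reads. Cxcl1, also a neutrophil attractant, went the other way, with 0.581 ± 0.0891 CPM with loaded MNs, 0.234 ± 0.0320 CPM with empty MNs and 0.244 ± 0.0138 CPM in untreated lesions (log2 1.25 for loaded against untreated, edgeR adjusted p = 0.000124, and 1.31 for loaded against empty, edgeR adjusted p = 5.11e-05). Its receptor gene Cxcr2 was lower with loaded MNs than in untreated lesions (log2 -0.70) and than with empty MNs (-0.75).

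**Figure D4:**
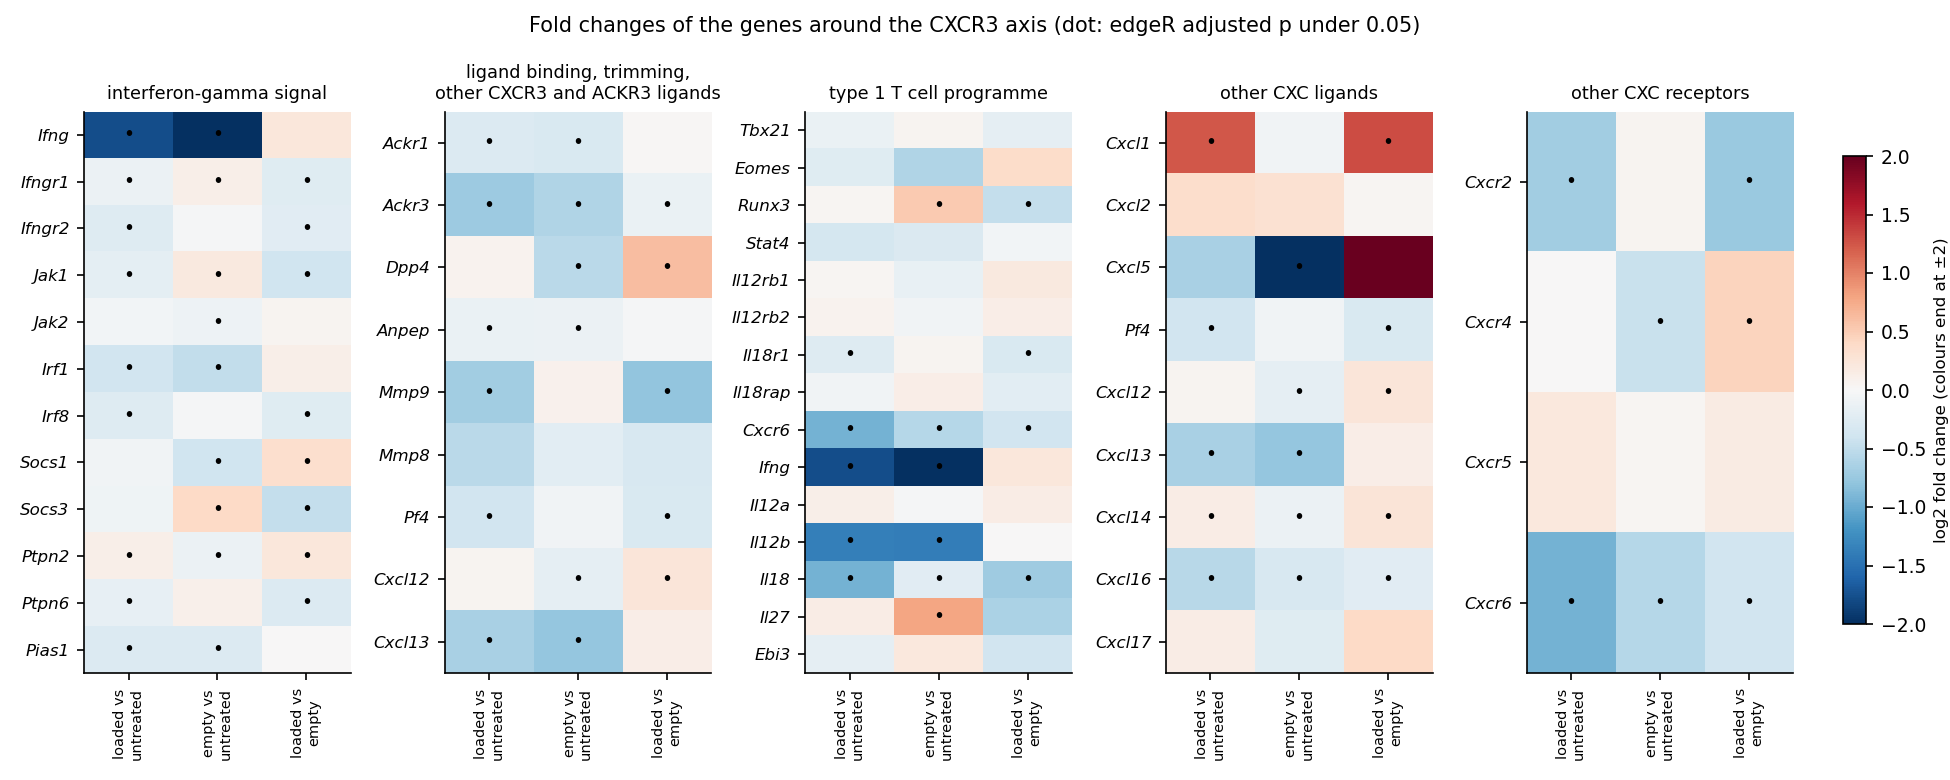
Log2 fold changes (colour, ending at 2 in either direction) of tested genes from 5 lists around CXCR3, with 1 column per comparison and a dot where the edgeR adjusted p was under 0.05. With loaded MNs against untreated lesions, Ifng (-1.78), Il12b (-1.37) and Cxcr6 (-0.95) have the lowest values of the genes drawn, and Cxcl1 (1.25) the highest.

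No named neighbour of the ligands on chromosome 5 fell as they did against untreated lesions. Within 500 kb of Cxcl10, 16 named neighbours had log2 fold changes from -0.28 to 0.57 with loaded MNs against untreated lesions, from -0.43 to 0.87 with empty MNs against untreated lesions and from -1.08 to 0.71 with loaded against empty MNs. Art3, which holds Cxcl10 and Cxcl11 within its span on the other strand, had a log2 fold change of -0.28 with loaded MNs (edgeR adjusted p = 0.00268) and -0.04 with empty MNs (edgeR adjusted p = 0.655) against untreated lesions, and -0.24 between the devices, where the ligand genes were higher. Nup54, a nuclear pore gene on the far side of Art3, had -0.03 with loaded MNs and -0.17 with empty MNs, and Sdad1, on the near side of Cxcl9, had 0.09 and -0.14.

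**Figure D5:**
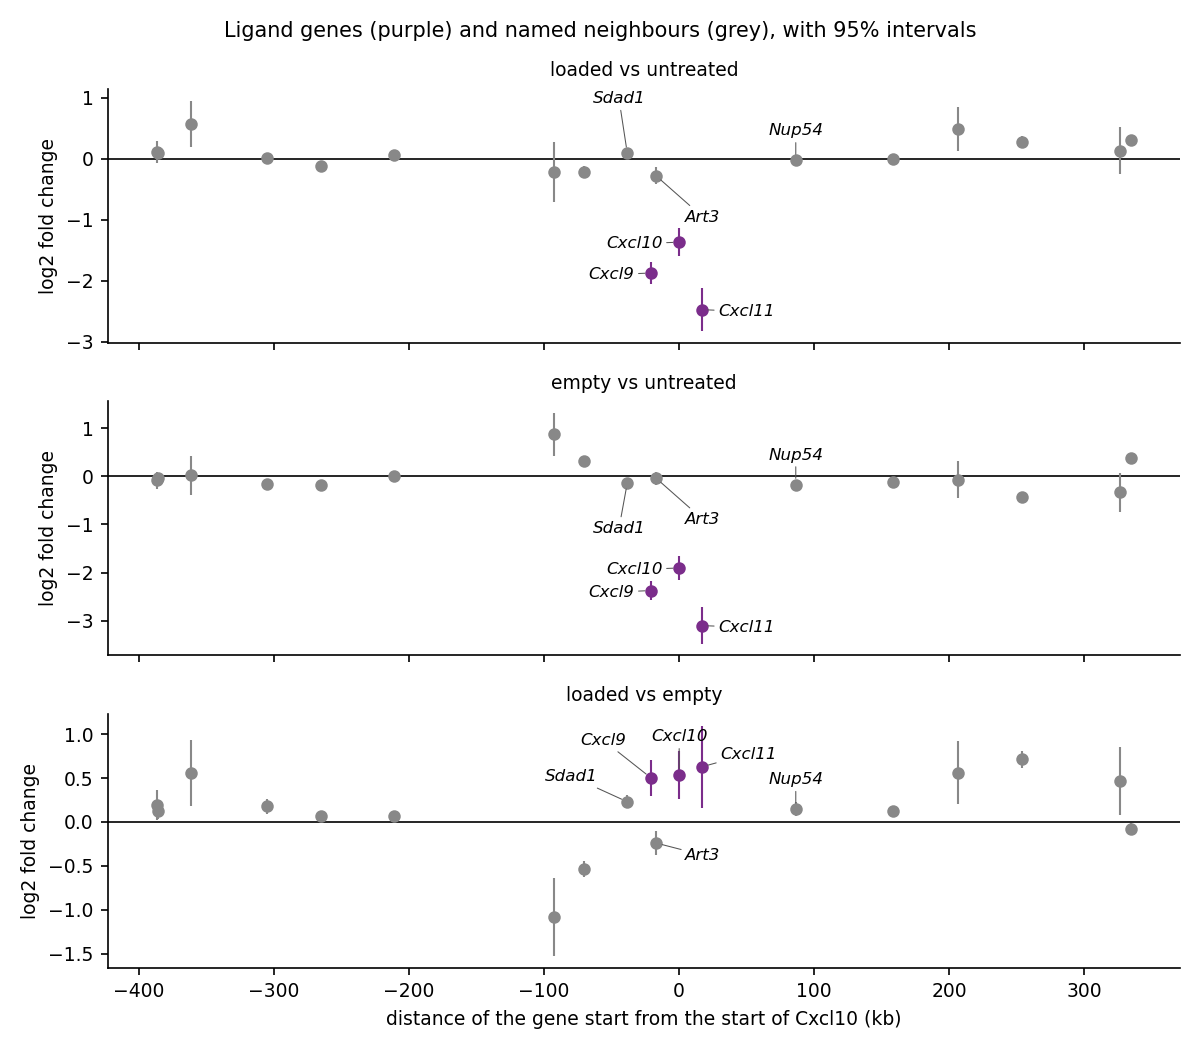
Log2 fold change (vertical axis, with 95% intervals) of the ligand genes and the named genes within 500 kb, by distance of the gene start from that of Cxcl10 in kilobases (horizontal axis), with 1 panel per comparison and its own vertical scale. The 3 ligand genes lie below -1.3 in both comparisons with untreated lesions while their neighbours lie between -0.43 and 0.87, and in the comparison of devices the ligand genes fall within the range of their neighbours.

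The genes whose pattern over the 9 libraries was closest to each member were found by the root mean square difference of log2 CPM, each gene centred on its own mean, among genes of at least 1 CPM on average. Genes with the names of predicted genes or pseudogenes were left out of that search. For Cxcl9, among 13895 genes, the closest were Mmp12 (0.212 log2 units), an elastase of macrophages, Ifit1 (0.245), Cxcl10 (0.268), Gbp2b (0.304) and Ifi44 (0.307), of which Ifit1, Gbp2b and Ifi44 are known as interferon-induced genes. Mmp12 averaged 9.69 CPM with loaded MNs, 5.31 CPM with empty MNs and 35.7 CPM in untreated lesions, the same order of groups as Cxcl9. For Cxcl10 the closest were Gbp2b (0.190), Serpina3n (0.228), Gbp2 (0.253), Ifi44 (0.256) and Ighg2b (0.267). For Cxcl11 they were Mmp12 (0.381), Cxcl9 (0.414), Ighg1 (0.513), Ifit1 (0.544) and Cxcl10 (0.607). Ighg1 and Ighg2b are antibody genes, whose reads can be shared with close copies. For Cxcr3, the closest were Aadacl4fm5 (0.135), Ptafr (0.141), Siglec1 (0.154), Acoxl (0.163) and Nckap1l (0.164).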

How the data were processed

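Per the labels' protocols, RNA was isolated by Qiagen miRNeasy and libraries were built by the xGen Broad-Range method of IDT. HISAT2 alignment to mm39 and featureCounts counting are named in the submitters' processing notes, with versions, annotation and strand setting not given in the sources used here. The deposited table holds raw read counts per gene, not normalized, for 9 libraries, per the file headers. A gene's length equalled its span for 99.85% of genes, so reads in introns were included. None of the 6185 genes inside another gene of the same strand had a count, whereas 86.1% of the 5960 genes inside a gene of the opposite strand only did, so counting used the strand and dropped reads shared by genes of the same strand. Ifng, Jak1, Ackr1, Irf9, Nfkb1, Mertk, Lck, Trp63 and Pik3cd, among other genes of the lists, each overlap such a gene in part and may be undercounted.

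Groups came from the treatment labels. Genes were kept with filterByExpr (minimum count 10, minimum total 15), scaled with TMM, and modelled in edgeR 4.0.16 under R 4.3.3 (robust quasi-likelihood F test, 1 coefficient per group, all 9 libraries, Benjamini-Hochberg adjustment over 26081 genes). CPM values are TMM-scaled. Ratios of counts per library, with 0.5 added to each, were tested with exact permutation over the 1680 assignments of 9 libraries to 3 groups, two-sided, adjusted over 8 ratios; 3 libraries against 3 cannot go below 0.1 in such a test. The 4 genes and the 20 lists (183 genes) were chosen with earlier results of these data known, and the motifs with the promoters in view. Named list genes are those called or with a direct part in the CXCR3 pathway; some genes of the lists are counted but not reported here. Promoters and gene types are RefSeq entries of GRCm38.p6, and the other gene type given for Cxcl11 is from GENCODE M21. Alternatives were other scalings and filters, DESeq2 1.42.0, limma-voom (limma 3.58.1), a replicate block, the 2 groups alone and each library left out.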

Additional observations from a re-analysis of the deposited data

How the results depend on the processing

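The falls of Cxcl9, Cxcl10 and Cxcl11 against untreated lesions, and the higher Cxcl9 and Cxcl10 with loaded than with empty MNs, kept their direction and call in all 19 alternatives. The log2 fold changes ran from -1.99 to -1.74, -1.52 to -1.24 and -2.70 to -2.29 for Cxcl9, Cxcl10 and Cxcl11 with loaded MNs against untreated lesions, from -2.43 to -2.27, -1.99 to -1.80 and -3.33 to -2.87 with empty MNs against untreated lesions, and from 0.39 to 0.56 for Cxcl9 and 0.39 to 0.64 for Cxcl10 between the devices. Cxcl11 between the devices was not called with limma-voom (log2 0.65, adjusted p = 0.0539) and ran from 0.40 to 0.87 with each library left out. Cxcr3 with loaded MNs against untreated lesions ran from -0.73 to -0.42 with each library left out, and the stricter filter of 1 CPM in 3 libraries removed Cxcr3. With each library left out, the log2 difference of loaded MNs from untreated lesions ran from -0.58 to -0.38 for Cxcl9 to Cxcl10, from 0.47 to 0.72 for Cxcl9 to Cxcl11, from 1.03 to 1.19 for Cxcl10 to Cxcl11 and from -0.15 to 0.16 for Cxcr3 to T cell markers, which was -0.089 with the marker median in place of the sum. The cause of these changes was not tested. Scaling to library size alone moved the median of all genes with loaded MNs against untreated lesions from -0.014 to 0.12 and the share of higher calls from 44.9% to 68.1% (57.9% against 41.7% with empty MNs against untreated lesions); upper quartile scaling gave 44.4% against 55.3% between the devices and 53.0% against 41.7% with empty MNs against untreated lesions. Libraries with the same replicate number did not deviate together (correlations from -0.100 to 0.0956 over 9 pairs, and 0 libraries closest to their own number), and a replicate block changed no call of the 4 genes and gave 10960, 12490 and 10753 called genes with loaded against untreated, empty against untreated and loaded against empty, beside 11024, 12597 and 10805. Within groups, libraries differed by 1.91 to 4.29 times the counting noise, so no pair of libraries agreed within it; this does not tell separate animals from repeat libraries. Low counts limit Cxcr3, Cxcl11, Tbx21, Cxcl5 and Ifng.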
